A study of Mus musculus with 24 samples.

Results

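Solute carriers are membrane proteins that move nutrients, ions, metals, vitamins and organic molecules across the plasma membrane and the membranes of vesicles. The set described here was chosen by symbol and level: symbols starting with Slc and a digit or with Slco, at a mean of 5 CPM (counts per 1000000 gene counts) or more in at least 1 of the 6 groups of the study. The Slc25 mitochondrial family and 13 carriers of amino acids, glucose, lactate and iron (Slc7a5, Slc3a2, Slc38a2, Slc6a9, Slc1a4, Slc7a11, Slc2a1, Slc16a1, Slc16a3, Slc7a2, Slc40a1, Slc11a1 and Slc11a2) were left out by the same rule. Of 388 such symbols among the 24421 gene symbols counted, 47 belonged to Slc25, 13 were on that list, 193 stayed under the level and 135 remained. The levels themselves chose the members, so their presence in these cells is a description and was not tested. A total of 109 members reached 5 CPM in all 6 groups. A total of 4 (Slc24a5, Slc29a2, Slc2a13 and Slc39a4) reached it in 1 group and 6 (Slc13a3, Slc17a9, Slc35g1, Slc4a3, Slc4a4 and Slc9a7) in 2 groups, and a member that enters through 1 group only has to differ between groups. For these 10 members, a difference that involves a group through which they entered is a description, although it is counted among the calls; counts over the 109 members are given beside the main ones. Just inside the threshold, the highest group mean was 5.20 CPM for Slc24a5, 5.28 for Slc39a4 and 5.40 for Slc2a13. Just outside it stood Slc37a1 at 4.97 CPM, Slc9a5 at 4.74 and Slc45a3 at 4.26.

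The cells were bone marrow-derived macrophages from C57BL/6J mice aged 12 weeks, either wild type (WT) or OGT knockout (KO). OGT is the enzyme that places O-GlcNAc, a single sugar, on nuclear and cytoplasmic proteins. Cells were left unstimulated (M0), stimulated with LPS at 100 ng/ml for 12 h, or stimulated with IL-4 at 10 ng/ml for 12 h, which gave 6 groups of 4 RNA-seq libraries. The labels do not say whether the libraries of a group came from separate mice or cultures, so the p-values reflect how much these libraries scatter, which may be technical. Neither the promoter driving any Cre nor the deleted part of Ogt is stated in those labels.

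Macrophages take up nutrients through carriers at the cell surface and recover amino acids, sugars, nucleosides, metals and haem from digested material through carriers of the lysosome. LPS, a bacterial cell wall lipid sensed by TLR4, and IL-4, which signals through STAT6, move macrophages to different metabolic programmes. Carriers of the Slc35 family work elsewhere, in the membranes of the Golgi and endoplasmic reticulum, where they import nucleotide sugars such as UDP-GlcNAc, the donor that OGT also uses in the cytosol. The members were sorted into classes by family number, with few exceptions: 17 amino acid carriers, 8 endolysosomal carriers, 15 carriers of sugars and monocarboxylates, 7 of nucleosides and vitamins, 22 of metals, 21 of ions, 4 of phosphate and dicarboxylates, 13 of lipids and organic ions, 24 of the Golgi and endoplasmic reticulum, and 4 genes that carry the symbol without being carriers. Sorting by family puts the biotin and pantothenate importer Slc5a6 and the aromatic amino acid carrier Slc16a10 with sugars and monocarboxylates, the folate importer Slc46a1 with endolysosomal carriers, and the lysosomal carriers Slc36a1 and Slc38a9 with amino acids. The genes that are not carriers are the scaffold proteins Slc9a3r1 and Slc9a3r2, the Slc4a1 adaptor protein Slc4a1ap, and Slc7a6os, a neighbour of Slc7a6. Slc8b1, a sodium and calcium exchanger of the inner mitochondrial membrane, is also in the set by its symbol, so the set is wider than the plasma membrane and vesicles.

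Of the 24 libraries, 21 were deep (63429271 to 94942464 gene counts) and 3 were shallow: WT LPS 1, WT LPS 2 and KO LPS 7 held 172771 to 209368. All 135 members had a count in every deep library and 112 to 121 of them in a shallow one, where 1 count was worth 5.16 to 5.98 CPM. Values below are listed in the order of the label numbers, 1 to 4 for WT and 5 to 8 for KO, in CPM of the TMM-scaled library size, so the first 2 values of WT LPS and the third value of KO LPS come from the shallow libraries. In M0, Ogt RNA was at 47.3, 51.3, 47.4 and 52.4 CPM in WT and at 34.5, 34.6, 36.9 and 35.8 CPM in KO. The fitted log2 difference of KO from WT was -0.49 in M0, -0.63 under LPS and -0.71 under IL-4, so Ogt reads were lower but present in the KO libraries. All 10 macrophage markers were detected in every group, and their summed level was 13826 to 15679 CPM in WT M0 and 8658 to 10442 in KO M0, 14537 to 15425 and 8942 to 9266 under LPS, and 6722 to 7382 and 5883 to 6215 under IL-4. Singly, they were called lower in KO for 4, 6 and 2 of 10 in M0, LPS and IL-4, and higher for 0, 2 and 1. Their median log2 difference under IL-4 was 0.0233, although the sum was lower in KO. The summed level of 8 stromal markers was 11264 to 13500 CPM in WT M0 and 16074 to 21496 in KO M0, 10508 to 12265 and 14740 to 15937 under LPS, and 7560 to 8309 and 11101 to 14879 under IL-4. Stromal markers were called higher in KO for 6, 6 and 7 of 8 in M0, LPS and IL-4, and endothelial markers for 5, 3 and 4 of 8, with 0 lower. The endothelial sum was 17.9 to 22.5 CPM in WT M0. In KO it was split by library, at 27.8 and 31.5 CPM in KO M0 5 and 6 and 88.4 and 87.3 in KO M0 7 and 8, and under IL-4 at 20.4 and 21.2 against 50.3 and 49.1, where WT IL-4 held 21.7 to 25.8. The part of these marker differences in the genotype results below was not tested, and in bulk RNA fewer cells of a type and less RNA per cell cannot be told apart.

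Together the members made up 0.782% of gene counts in WT M0, 0.972% in WT LPS and 0.705% in WT IL-4, and 0.781%, 0.982% and 0.724% in the same KO groups. Such a share is a sum in which genes of high level weigh most, among them Slc15a3, whose LPS rise is given below. Over the deep libraries, per kilobase of exon, the level of Slc48a1, which moves haem out of endolysosomes, was 113 CPM. It was followed by the endoplasmic reticulum zinc carrier Slc39a7 at 106, the lysosomal peptide and histidine carrier Slc15a3 at 104, the zinc importer Slc39a1 at 96.4, the taurine importer Slc6a6 at 54.6 and the neutral amino acid exchanger Slc7a8 at 49.3 CPM per kilobase. These are descriptions of level, since level chose the members.

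LPS against M0 asked how 12 h of LPS changed the carriers. In WT, LPS raised 58 and lowered 38 of the 135 members, by edgeR's quasi-likelihood test with Benjamini-Hochberg adjustment over all genes at 0.05. These were 71.1% of members, while 57.7% of all 14693 genes tested changed, 29.4% higher and 28.3% lower. In KO it raised 54 and lowered 52, 78.5% of members, against 67.3% of all genes, 31.2% higher and 36% lower. Among the 109 members at 5 CPM in every group, the counts were 52 higher and 22 lower in WT and 48 and 33 in KO. The median log2 change of the members was 0.126 in WT, against -0.0145 over all genes, and -0.00356 in KO, against -0.0668. In WT, 15 members rose and 14 fell by 2-fold or more, while 1501 and 1295 of all 14693 genes did. Among the 109 members these counts were 12 and 6. The largest rises were in Slc2a6, Slc28a2, Slc13a3, Slco3a1, Slc31a2 and Slc15a3, and the largest falls in Slco2b1, Slc46a3 and Slc9a9. With each library left out in turn, the WT count ranged from 83 to 97 and the KO count from 96 to 104. Members were chosen by level and the genes tested were not, so shares here and below are not matched for level.

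Promoter windows are shown for the 3 members with the largest LPS rises and for Slc46a3, a strong fall, because their levels were among those that changed most within 12 h. The sequences are RefSeq's for GRCm38.p6, written 5′ to 3′ on the gene's strand. Each window was the 250 bases before an annotated start, which can lie inside the gene. Only the part outside the gene span is printed. Capitals mark a motif found by letter search on both strands: GGG, any 2 bases, TT, any base and CC for NF-kB, GAAA and GAAA with 2 bases between them for the interferon-stimulated response element, TTC and GAA with 3 bases between them for STAT factors and with 4 for STAT6, TGANTCA for AP-1, CACGTG for the E-box and TGATGNAA for ATF4.
Slc2a6, chr2:27028001-27028248, minus strand, no match: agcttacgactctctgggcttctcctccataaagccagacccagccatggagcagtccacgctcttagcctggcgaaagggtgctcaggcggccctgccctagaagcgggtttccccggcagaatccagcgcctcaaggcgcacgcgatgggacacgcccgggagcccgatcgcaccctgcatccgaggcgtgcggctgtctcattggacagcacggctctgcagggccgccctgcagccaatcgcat
Slc28a2, chr2:122426185-122426356, plus strand, a STAT6 and a STAT match: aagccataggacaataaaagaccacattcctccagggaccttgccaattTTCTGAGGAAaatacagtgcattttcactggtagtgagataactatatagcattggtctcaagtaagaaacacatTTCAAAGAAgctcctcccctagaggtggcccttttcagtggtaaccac
Slc13a3, chr2:165473198-165473447, minus strand, an NF-kB and an E-box match: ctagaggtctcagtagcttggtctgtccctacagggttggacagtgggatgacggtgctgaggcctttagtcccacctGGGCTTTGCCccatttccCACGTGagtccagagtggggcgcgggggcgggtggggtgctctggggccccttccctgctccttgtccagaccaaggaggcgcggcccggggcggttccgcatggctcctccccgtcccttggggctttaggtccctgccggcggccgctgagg
Slc46a3, chr5:147894862-147895065, minus strand, a STAT match: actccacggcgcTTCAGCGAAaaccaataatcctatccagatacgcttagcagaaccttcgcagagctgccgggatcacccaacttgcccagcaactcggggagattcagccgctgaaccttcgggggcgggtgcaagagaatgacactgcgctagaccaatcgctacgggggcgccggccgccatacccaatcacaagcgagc
No matches overlapped. A match describes the letters in the window and no match says only that these letters are not in it. Promoters were found for 104 of the 135 members, 144 windows in all. The shares given next are over whole windows of 250 bases, with any part inside a gene. The NF-kB motif was in 4.86% of them and in 4.11% of all 32851 windows, and the 5 member genes with it were Slc13a3, Slc37a4, Slc39a1, Slc41a1 and Slc7a7. The STAT6 motif was in 5.56% of member windows and 5.85% of all, the STAT motif in 5.56% and 7.02%, the AP-1 motif in 5.56% and 6.75%, and the ATF4 motif in 3.47% and 3.45%. The interferon-stimulated response element was in 0 member windows and in 2.98% of all. The E-box was in 11.8% of member windows, in 17 genes, and in 6.02% of all windows.

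Slc2a6 (chr2:27021363-27028000), a glucose transporter family member of lysosomal membranes, was at 8.34, 8.73, 7.89 and 7.10 CPM in WT M0 and at 268, 340, 311 and 343 CPM in WT LPS. In KO it went from 8.77, 6.85, 7.06 and 7.91 CPM to 512, 473, 197 and 277 CPM. Every LPS library of both genotypes was far above every M0 library, a 40.2-fold rise in WT (log2 5.33 ± 0.20 SE, edgeR adjusted p = 2.6e-18) and a 52.5-fold rise in KO. The KO LPS values spanned those of WT LPS. Slc28a2 (chr2:122426357-122461152), a sodium-dependent importer of purine nucleosides, was at 8.34, 7.51, 7.71 and 7.30 CPM in WT M0 and at 165, 162, 225 and 232 CPM in WT LPS. In KO the M0 values were 14.1, 13, 11.1 and 12.0 CPM and the LPS values 608, 579, 305 and 386 CPM. All LPS libraries lay above all M0 libraries, and in both states all KO libraries lay above all WT libraries. The LPS rise was 28.2-fold in WT (log2 4.82 ± 0.14 SE) and 40.0-fold in KO.

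Slc13a3 (chr2:165405295-165473197), a sodium-dependent importer of dicarboxylates such as succinate, reached the 5 CPM level only in the LPS groups, so its rise is a description. Its values were 3.16, 1.72, 2.16 and 1.82 CPM in WT M0 and 36.1, 26.2, 54.0 and 53.3 CPM in WT LPS. In KO they were 0.899, 0.670, 0.790 and 0.553 CPM in M0 and 24.7, 25.9, 29.9 and 27.6 CPM under LPS. The rise was 23.3-fold in WT and 35.7-fold in KO, with M0 and LPS libraries well apart in both genotypes.

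Slc15a3 (chr19:10842544-10857915), the lysosomal peptide and histidine carrier, rose from 174, 162, 162 and 146 CPM in WT M0 to 1372, 1543, 1706 and 1749 CPM in WT LPS, 10.0-fold (log2 3.33 ± 0.12 SE). In KO it rose 10.9-fold, to 2279, 2134, 1286 and 1720 CPM. Slco3a1 (chr7:74275418-74554780), a carrier of organic anions including prostaglandins, rose from 20.2, 16.5, 17 and 18.2 CPM to 170, 251, 243 and 242 CPM in WT, 13.2-fold, and 16.8-fold in KO. Both genes were above every M0 library in every LPS library.

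Metal carriers gave 12 of 22 higher and 6 lower under LPS in WT, and 11 and 5 in KO. The higher calls were 54.5% of the class in WT, above the 29.4% of all genes, and the lower calls 27.3%, near the 28.3% of all genes. Slc31a2 (chr4:62280393-62298412), a vesicular relative of the copper importer, rose from 32.9, 29.6, 32.1 and 31.8 CPM in WT M0 to 330, 256, 344 and 350 CPM in WT LPS, 10.6-fold (log2 3.41 ± 0.069 SE), and 9.51-fold in KO. Slc31a1 (chr4:62360583-62391769), the copper importer of the cell surface, was at 105, 92.7, 105 and 97.8 CPM in WT M0 and 418, 303, 361 and 357 CPM in WT LPS, a 3.59-fold rise. The zinc exporter Slc30a1 rose by a log2 of 1.08 in WT, the zinc importers Slc39a1 and Slc39a14 by 0.81 and 0.77, and the haem carrier Slc48a1 by 0.93. The zinc importers Slc39a8 and Slc39a10 fell. Slc39a8 (chr3:135816882-135888572) went from 13.8, 13.6, 14.7 and 13.9 CPM to 3.78 and 2.5 CPM in the deep WT LPS libraries, with 0 counts in the shallow ones (log2 -2.17 ± 0.16 SE). Zinc carriers therefore moved in both directions under LPS.

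The largest falls were those of single genes. Under LPS in WT, lipid and organic ion carriers gave 9 of 13 higher (69.2%) and 3 lower (23.1%), and in KO 7 and 2. The 8 endolysosomal carriers gave 3 higher and 3 lower in WT (37.5% each way), and 3 and 4 in KO. Among all genes 29.4% were higher and 28.3% lower in WT, and 31.2% and 36% in KO. Slco2b1 (chr7:99657804-99711340), an importer of organic anions, was at 38.5, 41, 45.7 and 48.8 CPM in WT M0 and at 43, 41.1, 37.7 and 35.8 CPM in KO M0. Under LPS the deep libraries held 2 and 11 counts in WT (0.0339 and 0.196 CPM) and 10, 20 and 14 counts in KO (0.165, 0.367 and 0.238 CPM). The shallow libraries held 0 counts, which allows up to 15.5 to 17.9 CPM there, so the near loss rests on the deep libraries and no fold is given. Slc46a3 (chr5:147875897-147894861), a lysosomal carrier, fell from 37.6, 36.5, 35.9 and 37 CPM in WT M0 to 1.53 and 1.19 CPM in the deep WT LPS libraries (log2 -4.76 ± 0.18 SE, edgeR adjusted p = 3.31e-18). In KO it fell from 47.1, 43.3, 32.5 and 30.5 CPM to 2.03, 2.20 and 1.94 CPM in the deep libraries (log2 -4.22). The 3 shallow libraries had 0 counts of Slc46a3. Slc9a9 (chr9:94669557-95230453), a sodium and proton exchanger of endosomes, fell from 131, 127, 137 and 137 CPM to 10.3, 5.23, 8.43 and 7.77 CPM in WT (log2 -4.04 ± 0.17 SE). In KO it fell from 151, 136, 98.6 and 95.4 CPM to 12.3, 13.9, 5.98 and 10.6 CPM (log2 -3.30). The related endosomal exchanger Slc9a7, over 5 CPM only in M0, fell by 1.93 on the log2 scale in WT, and Slc26a11, an anion exchanger family member, by 2.67.

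**Figure D1:**
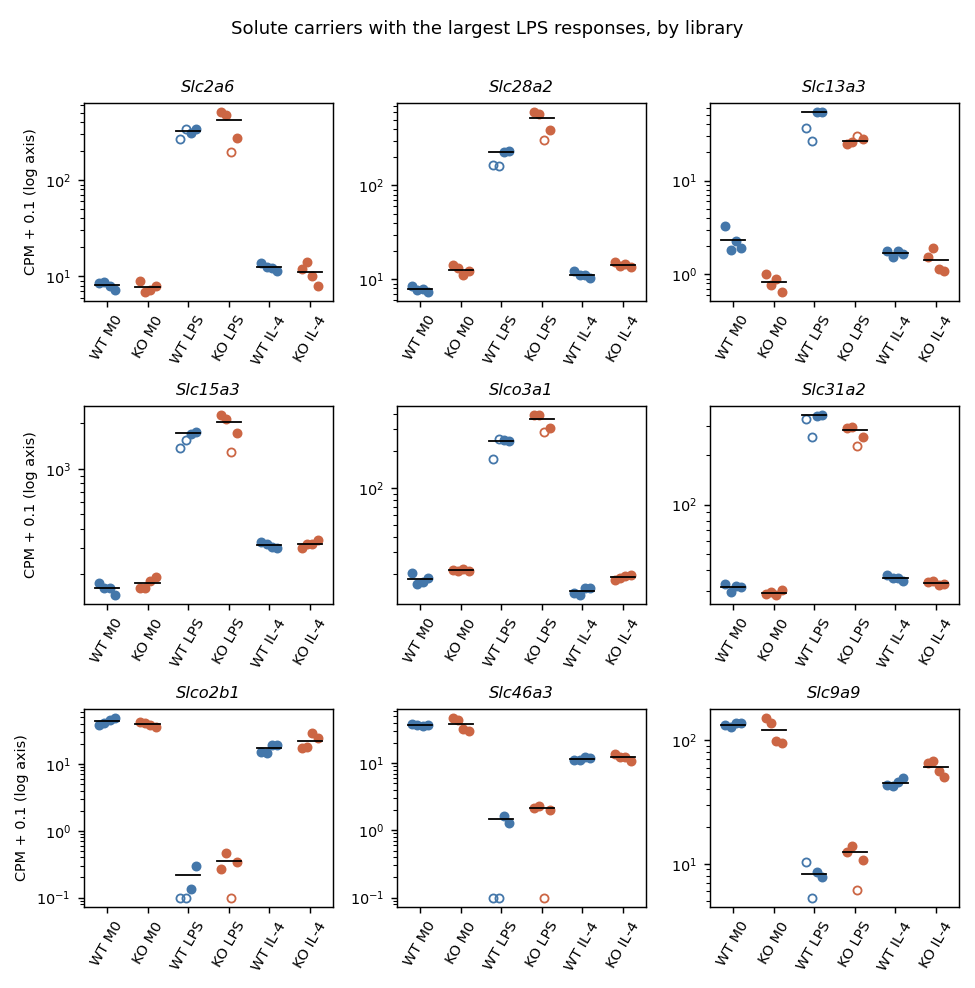
CPM plus 0.1 on a log axis in each library for 9 solute carriers with the largest LPS responses, by genotype and state; filled points are deep libraries, open points shallow ones and bars the mean of the deep libraries. Slc2a6, Slc28a2, Slc13a3, Slc15a3, Slco3a1 and Slc31a2 sit higher in every LPS library than in M0, and Slco2b1, Slc46a3 and Slc9a9 lower.

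Amino acid carriers gave 5 of 17 higher and 2 lower under LPS in WT, and 5 and 5 in KO. That is 29.4% higher, the share of all genes, and 11.8% lower in WT, and 29.4% each way in KO, against 31.2% and 36% of all genes. Slc7a8 (chr14:54722215-54781886) rose 2.89-fold in WT, from 212, 194, 179 and 188 CPM to 444, 596, 569 and 582 CPM, and 3.41-fold in KO. Slc7a7, the exchanger that releases arginine and lysine against neutral amino acids, rose by a log2 of 1.27 in WT and 1.30 in KO, and Slc16a10, an aromatic amino acid carrier, by 1.54 and 1.67. Slc43a2 (chr11:75529915-75577575), which carries branched-chain amino acids by facilitated diffusion, fell from 393, 349, 373 and 364 CPM to 191, 88.9, 209 and 196 CPM in WT (log2 -0.94). Sugar and monocarboxylate carriers were split, 7 of 15 higher and 7 lower in WT, and Golgi and endoplasmic reticulum carriers gave 7 of 24 higher and 6 lower in WT and 7 and 12 in KO. Ion carriers gave 8 of 21 higher and 7 lower in WT and 9 and 11 in KO, and among them Slc12a9, a relative of the cation and chloride cotransporters, rose by a log2 of 1.86 in WT and 2.11 in KO. The sugar class was above the share of all genes both ways in WT, at 46.7% each. The Golgi class was near it in WT, at 29.2% and 25%, and in KO held 29.2% higher and 50% lower, against 31.2% and 36%. The ion class was above it, at 38.1% and 33.3% in WT and 42.9% and 52.4% in KO.

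WT and KO responses share no libraries. Of the members that LPS raised, 49 were raised in both genotypes, 84.5% of the WT calls and 90.7% of the KO calls. Of those it lowered, 35 were lowered in both, 92.1% of the WT calls and 67.3% of the KO calls. Over all genes the same shares were 85.6% and 80.5% for rises and 87.4% and 68.5% for falls. Slc35a4, a Golgi carrier, was called higher in WT (log2 0.19) and lower in KO (log2 -0.16). DESeq2's Wald test did not call its WT rise, and 6 of 8 single libraries ended its KO call, to an adjusted p of 0.226 without KO LPS 8.

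IL-4 against M0 changed 92 members in WT, 41 higher and 51 lower. That was 68.1% of members, against 60.1% of all genes, 30.9% higher and 29.3% lower. In KO it changed 82, 37 higher and 45 lower, 60.7% of members, against 51.3% of all genes, 26% higher and 25.2% lower. Among the 109 members at 5 CPM in every group, 33 were higher and 37 lower in WT, and 30 and 32 in KO. The median log2 change was -0.00590 in WT and 0.0182 in KO, against -0.0135 and -0.0152 over all genes. Fewer members changed by 2-fold or more than under LPS: 3 rose and 12 fell in WT, against 15 and 14 under LPS. Over all 14693 genes these counts were 623 and 980 under IL-4 and 1501 and 1295 under LPS, so this was not particular to the members. Among the 109 members they were 1 and 7 under IL-4 and 12 and 6 under LPS. Left-out libraries moved the WT count between 85 and 92 and the KO count between 75 and 81.

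Zinc carriers were among the larger IL-4 changes in both directions. Slc39a10 (chr1:46807544-46925776), a zinc importer, rose from 22.6, 19.5, 20.3 and 22.3 CPM in WT M0 to 43.9, 37.8, 50.2 and 47.5 CPM in WT IL-4, 2.12-fold (log2 1.08 ± 0.081 SE, edgeR adjusted p = 1.87e-11). In KO it rose 1.74-fold, to 43.4, 41.9, 41 and 35.8 CPM, and no M0 library reached an IL-4 library. Slc39a4 (chr15:76612383-76618506), another zinc importer, over 5 CPM only in WT LPS, fell from 2.66, 1.58, 2.12 and 1.80 CPM to 0.222, 0.252, 0.320 and 0.214 CPM in WT (log2 -3.00 ± 0.24 SE, edgeR adjusted p = 7.61e-11). In KO it fell from 1.17, 1.26, 1.21 and 0.664 CPM to 0.123, 0.124, 0.213 and 0.161 CPM. Under LPS, Slc39a4 was higher by a log2 of 1.57 in WT, a description since WT LPS is the group that admitted it. Slc39a10 was lowered by LPS, by 1.06 on the log2 scale. The zinc importer Slc39a6 rose by a log2 of 0.69 in WT under IL-4.

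Among amino acid carriers, IL-4 raised 4 of 17 and lowered 7 in WT, 23.5% and 41.2%, against 30.9% and 29.3% of all genes. Slc7a1 (chr5:148327410-148399904), the main arginine importer of many cells, rose from 49.2, 47, 48.9 and 51.3 CPM to 93.1, 83.7, 90.1 and 88.1 CPM in WT (log2 0.85), and the glutamine exchanger Slc1a5 rose by 0.85 as well. Slc1a6 (chr10:78780086-78814825), a glutamate importer known from neurons, fell from 17.3, 18.6, 20.3 and 18.7 CPM to 4.63, 5.08, 5.74 and 5.88 CPM (log2 -1.81 ± 0.15 SE). Slc43a2 fell from between 349 and 393 CPM to 143, 129, 134 and 131 CPM (log2 -1.46 ± 0.10 SE), and Slc7a7 by 1.04 on the log2 scale. For each of these genes the M0 and IL-4 libraries were apart.

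IL-4 raised 4 of 7 nucleoside and vitamin carriers in WT, where 30.9% of all genes rose. Slc29a2 (chr19:5019057-5031972), an equilibrative nucleoside carrier over 5 CPM only in WT IL-4, rose from 1.78, 2.44, 2.08 and 2.11 CPM to 5.97, 5.89, 4.78 and 5.65 CPM, 2.65-fold, a description since that group admitted it. Slc19a1 (chr10:77032269-77050432), the reduced folate carrier, rose from 19.8, 21.8, 20.4 and 19.7 CPM to 36.7, 35.7, 32.9 and 34.4 CPM (log2 0.77 ± 0.075 SE, edgeR adjusted p = 2.11e-09). Golgi and endoplasmic reticulum carriers gave 11 of 24 higher and 4 lower in WT and 9 and 3 in KO, among them Slc35b1, the exchanger that brings ATP into the endoplasmic reticulum (log2 0.66 in WT), and Slc35g1 (1.24), over 5 CPM only under IL-4. Ion carriers gave 5 of 21 higher and 12 lower, and lipid and organic ion carriers 2 of 13 higher and 9 lower. Against 30.9% higher and 29.3% lower among all genes in WT, the Golgi class held 45.8% and 16.7%, the ion class 23.8% and 57.1% and the lipid class 15.4% and 69.2%. In KO the Golgi class held 37.5% and 12.5%, against 26% and 25.2%.

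Several members that LPS lowered were also lower under IL-4, although both comparisons use the same M0 libraries and are given side by side only. Slc46a3 was at 10.9, 11.2, 12.0 and 11.9 CPM in WT IL-4 (log2 -1.68), Slc9a9 at 43.4, 42.4, 45.9 and 49.5 CPM (-1.56), Slco2b1 at 15.2, 14.2, 19.3 and 19.1 CPM (-1.36) and Slc26a11 at 13.6, 14.5, 13.5 and 13.5 CPM (-1.60). Slc15a3 was higher under IL-4 too, at 328, 315, 305 and 298 CPM (log2 0.95).

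IL-4 raised 31 members in both genotypes, 75.6% of the WT and 83.8% of the KO calls, and lowered 43 in both, 84.3% and 95.6%. Over all genes these shares were 75.9% and 90% for rises and 74.5% and 86.4% for falls. Slc13a3 was called lower under IL-4 in WT (log2 -0.48, edgeR adjusted p = 0.0191) and higher in KO (0.84, adjusted p = 0.00112). The WT call did not hold without WT M0 1, with an adjusted p of 0.144, nor the KO call without KO libraries 5 and 6, and all of these values lie under 4 CPM.

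**Figure D2:**
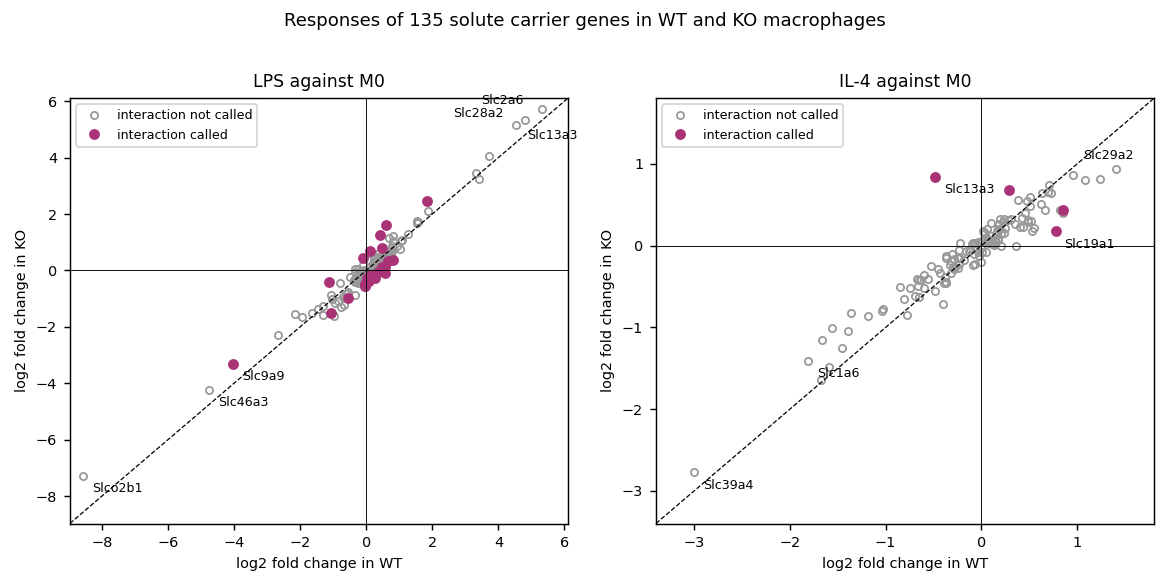
Log2 fold change of each of the 135 solute carriers in WT (x axis) and KO (y axis) after LPS (left) and IL-4 (right); the dashed line marks equal responses and filled points are members whose response differed between genotypes. Most members lie near the line, with Slc2a6 and Slc28a2 at the upper right and Slco2b1, Slc46a3 and Slc9a9 at the lower left under LPS, and Slc13a3 above the line under IL-4.

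KO against WT asked how the OGT knockout differed from wild type in each state. In M0, KO raised 24 and lowered 18 of 135 members, 31.1%, against 22.3% of all genes, 11.8% higher and 10.5% lower. Under LPS it raised 24 and lowered 31, 40.7%, against 30.9% of all genes, 16.2% higher and 14.6% lower. Under IL-4 it raised 40 and lowered 25, 48.1%, against 36.1%, 17.9% higher and 18.2% lower. Among the 109 members at 5 CPM in every group, the counts were 17 and 15, 18 and 26, and 31 and 23. The median log2 difference was 0.0306 in M0, -0.0264 under LPS and 0.0352 under IL-4, against 0.0153, 0.0118 and 0.00654 over all genes. The median size of the difference was 0.143, 0.205 and 0.174 for members and 0.153, 0.235 and 0.203 for all genes. The shares called are not matched for level, and the part of level in them was not tested. In all, 94 members were called in at least 1 state and 41 in none. The same count was not made over all genes, so these are a description only.

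The counts depend on the test and on the libraries. With DESeq2's Wald test they were 18, 36 and 34 in place of 42, 55 and 65, and with label numbers summed in pairs, which leaves 2 samples a group, 7, 30 and 18. M0 calls that held in every alternative included those of Slc13a3, Slc24a5, Slc2a10, Slc35b4, Slc38a1 and Slc39a4. Under IL-4 the count of members higher in KO was 25 without WT IL-4 2, in place of 40. Under LPS it was 16 without WT LPS 4, in place of 24. KO libraries 5 and 6 also stood apart from 7 and 8: the median log2 difference between these pairs, in size, was 0.114 over the members in KO M0 and 0.116 in KO IL-4, against 0.0572 between WT M0 pairs and 0.0660 between WT IL-4 pairs. Calls named below held when each library was left out unless a library is named.

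A total of 9 members were higher in KO in all 3 states (6.67% of members; 4.06% of all genes) and 5 lower in all 3 (3.70%; 4.28% of all genes). Slc24a5 (chr2:125068127-125088677), a potassium-dependent sodium and calcium exchanger over 5 CPM only in KO LPS, was at 2.0, 2.27, 1.91 and 1.79 CPM in WT M0 and at 4.96, 4.98, 4.15 and 3.98 CPM in KO M0. Under IL-4 it was at 1.06, 1.32, 1.19 and 1.06 CPM in WT and 2.46, 2.75, 2.78 and 2.04 CPM in KO. The KO libraries lay above the WT libraries in both states, with log2 differences of 1.19 ± 0.15 in M0 and 1.12 ± 0.15 under IL-4 (edgeR adjusted p = 2.13e-06 and 5.84e-06). The LPS difference of 1.24 ± 0.19 is given without a test, because KO LPS is the group that admitted the gene.

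Slc28a2 was 2.31-fold higher in KO under LPS (log2 1.21 ± 0.14 SE, edgeR adjusted p = 3.39e-07) and 0.70 higher on the log2 scale in M0. Under IL-4 its values were 12.2, 11, 11.1 and 10.2 CPM in WT and 15.2, 13.8, 14.4 and 13.4 CPM in KO, a log2 difference of 0.35 whose call 5 of 8 libraries ended (adjusted p up to 0.0930, without WT IL-4 4). Slc6a6 (chr6:91684048-91759063), the taurine importer, was at 268, 366, 355 and 348 CPM in WT LPS and 528, 555, 389 and 445 CPM in KO LPS (log2 0.53, edgeR adjusted p = 0.000301). Under IL-4 it was at 331, 289, 368 and 332 CPM in WT and 444, 444, 429 and 419 CPM in KO (log2 0.40). KO values lay above WT values in both. Its M0 difference of 0.24 passed at an adjusted p of 0.0483 and was lost with any 1 of the 8 libraries left out, up to 0.274 without WT M0 2, which was low at 412 CPM beside 504 to 522.

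Slc17a5 (chr9:78536487-78588045), the lysosomal sialic acid exporter sialin, was at 54.9, 51.5, 57.4 and 54.4 CPM in WT IL-4 and 83, 80.6, 79.4 and 79.5 CPM in KO IL-4 (log2 0.56 ± 0.050 SE, edgeR adjusted p = 1.04e-08). Its differences in M0 and LPS were 0.17 and 0.28, and the M0 call was lost in 5 of 8 leave-outs, to 0.141 without WT M0 2. Slco3a1 was higher by 0.59 ± 0.091 under LPS and 0.37 under IL-4. Its M0 call was lost in 7 of 8 leave-outs, to 0.151 without WT M0 2. Slc16a6, a monocarboxylate carrier, is described with the interactions below. The potassium and chloride cotransporter Slc12a7 differed by 0.18, 0.46 and 0.19, with an M0 call that any library ended (0.180 without WT M0 2) and an IL-4 call that 4 of 8 ended (0.0841 without KO IL-4 6). Slc39a13, a zinc carrier of intracellular membranes, differed by 0.23, 0.48 and 0.23.

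The 5 members lower in all 3 states held 2 nucleotide sugar carriers. Slc35b4 (chr6:34155872-34177054), which carries UDP-xylose and UDP-GlcNAc, was at 51.2, 48.6, 44.6 and 52.5 CPM in WT M0 and 37.4, 37.9, 36.1 and 36.3 CPM in KO M0. Under LPS it was at 36.1, 78.5, 47.6 and 46.5 CPM in WT and 27, 28.6, 17.9 and 24.1 CPM in KO. Under IL-4 it was at 48.9, 46.3, 48.5 and 49.0 CPM in WT and 36.1, 37.2, 35 and 31.4 CPM in KO. Every KO library was below every WT library in each state, with log2 differences of -0.41 ± 0.066, -0.84 ± 0.085 and -0.46 ± 0.066 (edgeR adjusted p = 6.85e-05, 6.56e-08 and 8.56e-06), and these calls held in every alternative run. Slc35c1 (chr2:92452764-92460518), the GDP-fucose carrier, was at 33, 31.9, 32.3 and 30.1 CPM in WT M0 and 26.7, 26.5, 26 and 25.0 CPM in KO M0. Its log2 differences were -0.29, -0.45 and -0.28, none of them called by DESeq2's Wald test.

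Slc38a9 (chr13:112656189-112738752), the lysosomal carrier that senses arginine for mTORC1, was at 12.5, 13.3, 11.6 and 12.7 CPM in WT M0 and 9.29, 10.6, 10.1 and 8.47 CPM in KO M0. Under IL-4 it was at 19.2, 18.9, 20.2 and 19.2 CPM in WT and 16.7, 15.6, 14.1 and 13.5 CPM in KO, so all KO libraries were below all WT libraries in both. The log2 differences were -0.38, -0.56 and -0.37, and DESeq2's Wald test kept the LPS call only. The zinc importer Slc39a3 differed by -0.27, -0.66 and -0.30, and of these 3 calls DESeq2's Wald test kept that under LPS. The hexose carrier Slc2a8 of intracellular membranes differed by -0.40, -0.35 and -0.37, none of them called by DESeq2, and its LPS call was lost in 4 of 8 leave-outs, to 0.176 without WT LPS 4.

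**Figure D3:**
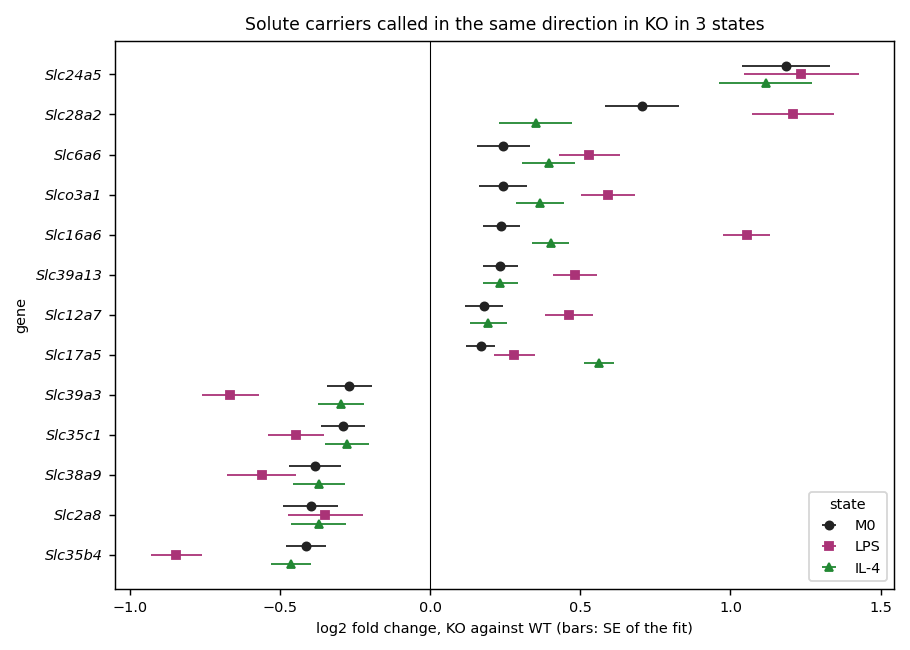
Log2 fold change of KO against WT (x axis, with bars for the SE of the fit) for 13 solute carriers called in the same direction in M0 (circles), LPS (squares) and IL-4 (triangles). Slc24a5 lies above 1 in all 3 states, and Slc35b4 under LPS is the lowest point at -0.84.

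By class, the calls are read against the shares of all genes called higher and lower in KO, 11.8% and 10.5% in M0, 16.2% and 14.6% under LPS and 17.9% and 18.2% under IL-4. Golgi and endoplasmic reticulum carriers had 1 of 24 higher and 2 lower in M0, below both shares. Under LPS they had 2 higher and 9 lower (37.5%), and under IL-4 4 and 10 (41.7%), so their lower calls were above the share of all genes in the stimulated states. Ion carriers had 5 of 21 higher (23.8%) and 3 lower (14.3%) in M0, both above it, 6 and 4 under LPS (28.6% and 19%), also both above it, and 8 and 2 under IL-4 (38.1% and 9.52%). The 8 endolysosomal carriers had 3, 2 and 3 higher and 0 lower. That 0 depends on how the class was drawn, because the lysosomal carriers Slc38a9 and Slc36a1, each called lower in KO in at least 1 state, are counted with amino acids. Amino acid carriers had 4 of 17 higher and 5 lower in M0, 2 and 5 under LPS, and 7 and 4 under IL-4, above the shares of all genes except for the 2 higher under LPS. Metal carriers had 3 of 22 higher and 4 lower in M0, 4 and 3 under LPS, and 5 and 2 under IL-4. In M0 the higher calls (13.6%) were near the share of all genes and the lower calls (18.2%) above it. Under LPS both were near it (18.2% and 13.6%). Under IL-4 the higher calls (22.7%) were above it and the lower calls (9.09%) below it. Sugar and monocarboxylate carriers had 5 of 15 higher and 2 lower, 3 and 2, and 5 and 2. No difference between classes, or between a class and all genes, was tested.

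**Figure D4:**
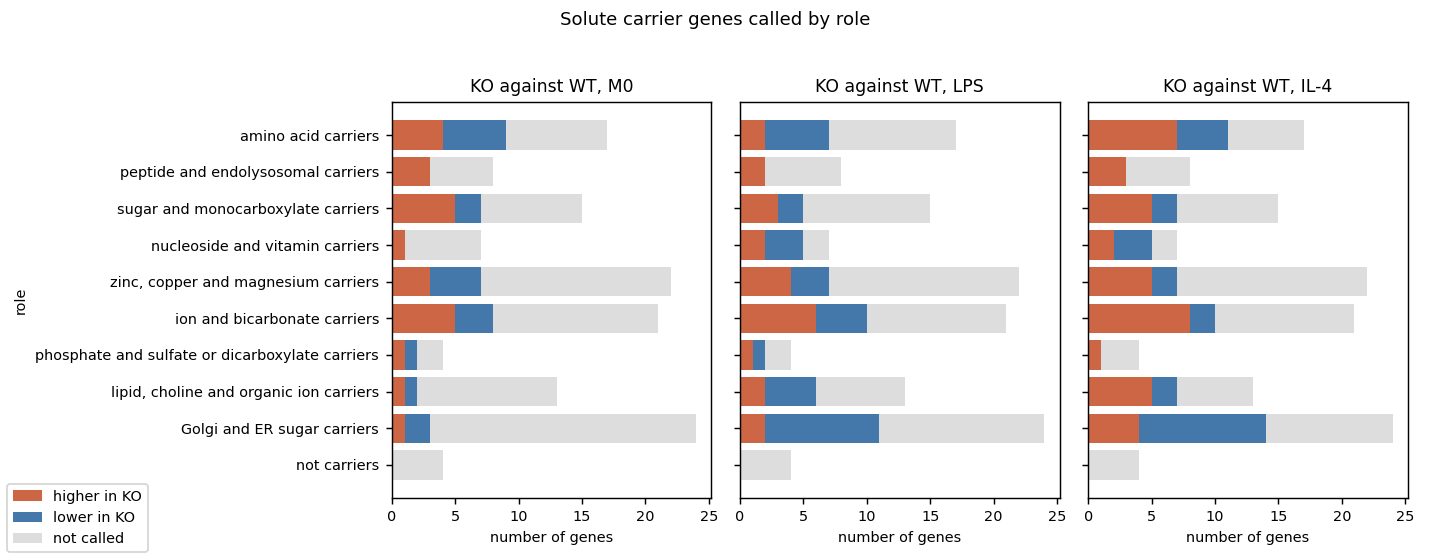
Number of solute carriers called higher, called lower or not called in KO against WT, by class and state, as stacked bars. In the Golgi and endoplasmic reticulum class the lower calls reach 9 of 24 under LPS and 10 of 24 under IL-4.

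Other genotype differences were seen in 1 or 2 states. Slc38a1 (chr15:96571418-96643438), a sodium-coupled glutamine importer, was at 51.3, 44.2, 46.9 and 46 CPM in WT M0 and 29.6, 29.4, 27 and 27.6 CPM in KO M0 (log2 -0.73 ± 0.091 SE, edgeR adjusted p = 2.64e-06). Under IL-4 it was at 57.1, 51.2, 55.5 and 52.3 CPM in WT and 36.7, 34.9, 31.7 and 27.6 CPM in KO (log2 -0.72). KO libraries were well below WT libraries in both states. Under LPS the values were 51.6, 68.0, 51.1 and 50.1 CPM in WT and 50.9, 50.8, 12.0 and 37.7 CPM in KO, and the difference of -0.15 was not called. Slc7a8 was at 167, 152, 133 and 126 CPM in KO M0, below all WT M0 libraries (log2 -0.42), and its IL-4 call (-0.30) was lost without WT IL-4 1, KO IL-4 7 or KO IL-4 8, to 0.117 at most. Slc43a2 was lower under LPS, at 138, 144, 95.7 and 115 CPM in KO (log2 -0.56, edgeR adjusted p = 0.00105), although the shallow library WT LPS 2, at 88.9 CPM, lay below every KO LPS library. Its M0 difference of -0.35 was lost without KO M0 7 or KO M0 8, up to 0.0662.

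Slc13a3 was lower in KO M0 by 1.60 on the log2 scale and lower in KO LPS by 0.99, with no overlap between genotypes in M0. Under LPS the shallow WT library at 26.2 CPM fell within the KO range of 24.7 to 29.9, and both deep WT libraries lay above it. Slc13a5 (chr11:72241990-72267295), a sodium-dependent citrate importer, went in the opposite direction. It was at 8.42, 10.4, 6.49 and 8.56 CPM in WT M0 and 12.8, 14.7, 19.7 and 18.6 CPM in KO M0, and at 7.25, 7.55, 6.87 and 4.39 CPM in WT IL-4 and 10.4, 10.3, 19 and 19.4 CPM in KO IL-4. The genotypes did not overlap in either state, with log2 differences of 0.96 ± 0.21 and 1.18 ± 0.22 (edgeR adjusted p = 0.00209 and 0.000169), and KO libraries 7 and 8 were the higher KO libraries in both. The same libraries held the higher endothelial sums given above, whose part in this difference was not tested. DESeq2's Wald test kept the call under IL-4 and not that in M0.

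Slc39a8 was lower in KO M0, at 11.1, 9.84, 7.97 and 7.84 CPM against 13.6 to 14.7 in WT (log2 -0.60, edgeR adjusted p = 0.000427), a call that DESeq2's Wald test did not make. The zinc carrier Slc30a4 (chr2:122681233-122702663), which loads vesicles, was at 15.5, 26.2, 30.2 and 29 CPM in WT LPS and 43.6, 44.9, 35.9 and 44.9 CPM in KO LPS, with KO above WT throughout (log2 0.60 ± 0.085 SE). Slc29a2 was lower in KO IL-4, at 3.86, 3.62, 3.16 and 2.49 CPM (log2 -0.76 ± 0.15 SE), a description since WT IL-4 is the group that admitted it. The lysosomal nucleoside carrier Slc29a3 was higher there, at 68.8, 68.1, 73.1 and 63.3 CPM against 51.5, 45.8, 52.9 and 52.9 CPM in WT (log2 0.43). Slc27a3, of the fatty acid transport protein family, was higher in KO by 0.62 under LPS and 0.48 under IL-4.

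The interaction of genotype and stimulus asked whether the response itself differed between KO and WT. For LPS it was called for 24 members, 8 with a higher and 16 with a lower response in KO. That was 17.8% of members, against 11.4% of all genes, 6.62% higher and 4.79% lower. Among the 109 members at 5 CPM in every group there were 7 and 14. The count moved between 12, without WT LPS 3 or WT LPS 4, and 29 with single libraries left out. It was 9 with DESeq2's Wald test and 3 with pairs summed, the 16 lower calls became 4 without WT LPS 3, and the 8 higher calls became 20 without KO LPS 8 and 5 without WT LPS 4. The excess of lower calls therefore depends on single libraries: it was 8 higher and 4 lower without WT LPS 3, and 20 and 8 without KO LPS 8. With the label number as a replicate block there were 42 calls, 21 each way, and without KO libraries 7 and 8 there were 39, 23 higher and 16 lower. The 3 calls that held in every alternative run were Slc8b1, Slc16a6 and Slc31a1.

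Slc8b1 (chr5:120511168-120534024), the mitochondrial sodium and calcium exchanger, was at 58.2, 59.2, 62.8 and 54.1 CPM in WT M0 and 47.6, 46.2, 39.6 and 44.9 CPM in KO M0. Under LPS it was at 119, 83.7, 88.6 and 87.2 CPM in WT and 150, 138, 114 and 122 CPM in KO. KO was below WT in M0 (log2 -0.39 ± 0.071 SE) with no overlap, and above it under LPS (0.61 ± 0.089), where the shallow WT library at 119 CPM lay within the KO range. The rise was 1.52-fold in WT and 3.05-fold in KO, an interaction of 1.0 ± 0.11 (edgeR adjusted p = 3.81e-06). Slc16a6 (chr11:109450855-109473598) was at 17.5, 14.9, 15.3 and 15.6 CPM in WT M0 and 19.3, 19, 18.6 and 17.6 CPM in KO M0. Under LPS it was at 10.3, 15.7, 22.4 and 20.7 CPM in WT and 44.5, 44.3, 29.9 and 44.6 CPM in KO. The LPS rise was 0.43 in WT and 1.25 in KO on the log2 scale, an interaction of 0.82 ± 0.10 (edgeR adjusted p = 9.37e-06), and every KO LPS library was above every WT LPS library. Its KO difference was 1.05 ± 0.080 under LPS and 0.40 ± 0.062 under IL-4, and its M0 difference of 0.24 was lost without WT M0 2 or WT M0 3, to 0.0566 at most. Slc31a1, the copper importer, was at 518, 529, 437 and 564 CPM in KO LPS, above all WT LPS libraries, and at 103, 93.7, 95.2 and 91.9 CPM in KO M0, overlapping WT. Its rise was 5.49-fold in KO against 3.59-fold in WT, an interaction of 0.61 ± 0.095 (edgeR adjusted p = 0.000147).

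A further 6 LPS interactions held with each library left out but not with pairs summed. The Slc35 family member Slc35f5 (chr1:125560528-125595834) was at 41.3, 26.2, 40.3 and 42.5 CPM in WT LPS and 63.6, 64.4, 59.8 and 58.7 CPM in KO LPS, with M0 values of 42.9 to 46.9 CPM in both genotypes (interaction 0.55 ± 0.084). Slc38a1 had an interaction of 0.58, which DESeq2's Wald test did not call and which was lost without KO libraries 5 and 6. Its KO LPS values were the closest to WT of the 3 states. In the other direction, Slc2a9 (chr5:38349272-38503147), a carrier of urate and hexoses, was at 11.7, 10.2, 11.1 and 11.9 CPM in WT M0 and 15.9, 16.1, 13.5 and 13.4 CPM in KO M0, and at 10.3, 15.7, 15.9 and 17.5 CPM in WT LPS and 15.4, 14.8, 12.0 and 11.4 CPM in KO LPS. It was higher in KO in M0 with no overlap, and its interaction was -0.65 ± 0.14 (edgeR adjusted p = 0.00244).

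Slc4a2, a chloride and bicarbonate exchanger, was at 155, 194, 139 and 141 CPM in WT LPS and 121, 118, 71.8 and 101 CPM in KO LPS, all KO below all WT (interaction -0.48 ± 0.10). Slc52a2 (chr15:76538814-76547878), a riboflavin importer, was at 36.1, 31.4, 38.2 and 38.4 CPM in WT LPS and at 29.2, 25.7, 17.9 and 22.3 CPM in KO LPS, with M0 values of 19.4 to 22.8 CPM in both genotypes (interaction -0.46 ± 0.10). All WT LPS libraries lay above every M0 library, and of KO LPS libraries 5 and 6 did. Slc35a4 had an interaction of -0.35. Of the folate carriers, Slc46a1 had an interaction of -0.53, lost in 8 of 16 leave-outs (up to 0.0986, without WT LPS 3), and Slc19a1 one of -0.40, lost in 9 of 16 (up to 0.340, without WT LPS 3). Slc9a9 fell less in KO (0.74 ± 0.20), a call lost without WT LPS 4 (0.0811), and Slc35b4 had an interaction of -0.43, lost without WT LPS 3 (0.0639) and not called by DESeq2's Wald test.

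Opposite calls in 2 states were made for 4 members, 2.96% against 1.89% of all genes: Slc8b1, Slc4a2, Slc36a1 and Slc38a6. For the last 3, KO was lower under LPS and higher under IL-4. The IL-4 call of Slc4a2 (0.20) was lost without WT IL-4 2 or KO IL-4 7, to 0.0709 at most. Slc36a1, a lysosomal amino acid carrier, lost its LPS call without WT LPS 3 or KO LPS 8 (up to 0.107) and its IL-4 call in 4 of 8 leave-outs (up to 0.106, without KO IL-4 6). Slc38a6 lost its LPS call in 6 of 8 leave-outs, up to 0.118 without KO LPS 8.

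For IL-4 the interaction was called for 4 members, 2 in each direction: Slc17a5, Slc13a3, Slc19a1 and Slc7a1. That was 2.96% of members, against 1.14% of all genes, 0.47% higher and 0.667% lower. Each held with every library left out, none with pairs summed, and those of Slc19a1 and Slc7a1 not without KO libraries 7 and 8. With the label number as a replicate block there were 16 calls, and without KO libraries 5 and 6 there were 14. Slc17a5 rose more in KO, by 0.69 against 0.29 in WT on the log2 scale (interaction 0.40 ± 0.070, edgeR adjusted p = 0.00434). Slc13a3 had an interaction of 1.32 ± 0.27 (edgeR adjusted p = 0.0125) and was at 1.66, 1.43, 1.68 and 1.55 CPM in WT IL-4 and 1.44, 1.80, 1.03 and 0.978 CPM in KO IL-4, where the genotypes overlapped. Slc19a1 was at 24.6, 25.2, 23.2 and 22.1 CPM in KO IL-4, below every WT IL-4 library, and at 18.8, 19.6, 24.1 and 21.8 CPM in KO M0 (interaction -0.60 ± 0.11, edgeR adjusted p = 0.00434). Its IL-4 rise in KO, 0.18, was not called. Slc7a1 was higher in KO M0, at 58.1, 61.6, 67.8 and 61.5 CPM, and reached 89.9, 88.1, 80.1 and 77.6 CPM in KO IL-4, overlapping WT (interaction -0.42 ± 0.081, edgeR adjusted p = 0.0081).

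**Figure D5:**
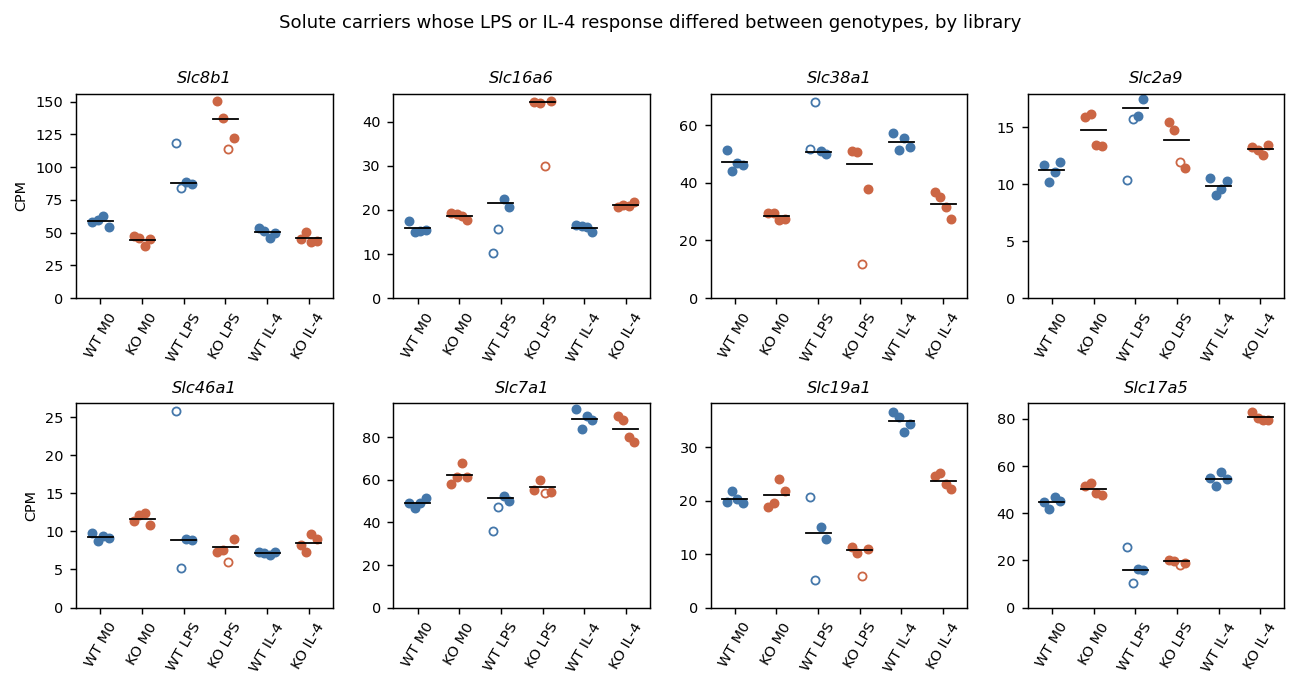
CPM (linear axis from 0) in each library for 8 solute carriers whose LPS or IL-4 response differed between genotypes; filled points are deep libraries, open points shallow ones and bars the mean of the deep libraries. Slc8b1 and Slc16a6 are highest in KO LPS, and Slc19a1 is highest in WT IL-4.

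Transport genes outside the set were counted in the same fit. Of 34 carriers without an Slc symbol, 27 were tested; KO against WT gave 3 higher and 3 lower in M0, 7 and 3 under LPS and 3 and 4 under IL-4. Apart from 25.9% higher under LPS, against 16.2% of all genes, these shares were near or below those of all genes. Ctns, the lysosomal cystine exporter, was lower in KO in all 3 states (log2 -0.67, -0.81 and -0.73). Of 8 metal-handling partner genes, 2, 6 and 1 were higher in KO and 0 lower in M0, LPS and IL-4, that is 25%, 75% and 12.5%, against 11.8%, 16.2% and 17.9% of all genes. Among them was the copper pump Atp7a, which had an LPS interaction of 0.43 ± 0.099 (edgeR adjusted p = 0.00475), in the same direction as the copper importer Slc31a1. The related Slc31a2 had an LPS interaction of -0.16, in the other direction and not called. Of 16 subunits of the vacuolar proton pump, which acidifies the vesicles in which endolysosomal carriers work, 3, 9 and 4 were higher in KO (18.8%, 56.2% and 25%) and 0, 1 and 0 lower. LPS raised 8 and lowered 3 of them in WT, 50% and 18.8%, against 29.4% and 28.3% of all genes. IL-4 raised 9 and lowered 0, 56.2% raised against 30.9%.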

How the data were processed

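RNA-seq libraries of bone marrow-derived macrophages were deposited by the authors as 1 table of gene counts per library, raw counts per gene symbol. Per the submitters' processing notes these tools were TopHat2 2.1.0 and HTSeq 0.9.1 with mm10/GRCm38; no label names the kit, the strand setting or the annotation, so reads of Slc7a6os and Slc7a6, which overlap on opposite strands, cannot be told apart. The 5 summary lines of each table, equal to 8.76% to 9.98% of a library, were left out, and no 2 libraries held identical values.

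The level rule used count divided by the library's gene total, averaged over the 21 deep libraries (over 1000000 gene counts) of each group. Counts of all 24 libraries were then fitted in 1 model of 6 groups with edgeR 4.0.16 in R 4.3.3 (limma 3.58.1; filterByExpr, TMM with a deep library as reference, quasi-likelihood test, 18 residual degrees of freedom). Of the genes, 14693 passed the filter, and all 135 members did. P-values were adjusted over all genes tested by the Benjamini-Hochberg method and called under 0.05. CPM in the text uses the TMM-scaled library size. A count of 0 was read as at most 3 counts, which is 0.0303 to 0.055 CPM in deep and 15.5 to 17.9 CPM in shallow libraries and covers counting error only. The procedure was tested on simulated data. Alternatives were RLE (relative log expression) size factors in edgeR in place of TMM, and the Wald test of DESeq2 1.42.0. Others were no filter on low counts, deep libraries only, only the groups compared, and each library left out. KO libraries 5 and 6 or 7 and 8 were also left out. The rest were label numbers summed in pairs, the label number as a block, and other level rules.

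The members, classes and gene lists were chosen with earlier results of these data known, and the 4 genes that are not carriers were set apart after the member list was seen. Members were named by rule: the 8 of highest level; up to 6 in each direction with the largest called differences in each comparison of 2 groups, where the group with the larger mean reached 5 CPM, and 4 for each interaction; up to 3 in each class with the smallest adjusted p over the KO comparisons; and those beside the level threshold. A further 15 members (Slc12a7, Slc39a13, Slc35c1, Slc38a9, Slc36a1, Slc38a6, Slc4a2, Slc35a4, Slc35e1, Slc35f6, Slc37a2, Slc30a1, Slc39a14, Slc16a10 and Slc7a7) were named after their values were seen. Positions of all 135 members came from RefSeq for GRCm38.p6 and exon lengths from GENCODE M21. Results for 2 members are not reported here.

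Whether label numbers pair libraries was checked by the correlation of their deviations from the group means over all genes. In KO it was over 0.1 in all 10 pairs of the same number (0.177 to 0.406), and also in all 10 pairs of unlike number within 5 and 6 or within 7 and 8 (0.187 to 0.382), and in 0 of 20 across these pairs. In WT it was over 0.1 in 1 of 8 same-number pairs. By this check the KO numbers group libraries, as 5 with 6 and 7 with 8, and the WT numbers do not, so fits with the number as a block are given beside the interactions.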

Additional observations from a re-analysis of the deposited data

Results flagged for a closer look

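In a group of 4 libraries, a library was singled out when its distance to the nearest other library, divided by the range of the group, was above Dixon's critical value for 4 values. Among 78 named solute carriers in the M0 and IL-4 groups this held in 9 of 312 groups tested (2.88%), where chance gives about 1 in 20. The LPS groups, which hold the shallow libraries, were not searched. A split of a group into pairs of libraries cannot be singled out this way. Slc17a9 was at 2.99 CPM in KO M0 8, beside 4.86 to 5.24 CPM in the other KO M0 libraries. Slc39a4 was low in the same library, at 0.664 CPM. Slc9a3r1 was at 107 CPM in KO M0 7. Slc6a6 was at 412 CPM in WT M0 2, beside 504 to 522, Slc1a5 at 53 CPM in WT M0 4, beside 59.6 to 60.8, and Slc52a2 at 22.8 CPM in WT M0 3. Under IL-4, Slc26a11 was at 14.5 CPM in WT IL-4 2, Slc4a1ap at 25.0 CPM in WT IL-4 4, and Slc30a1 at 46.6 CPM in KO IL-4 7, beside 51.1 to 51.7.

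Responses that differed between KO and WT by the interaction test of edgeR are given as log2 values, KO response minus WT response. Under LPS the response was higher in KO for Slc8b1 (1.0), Slc16a6 (0.82), Slc9a9 (0.74), Slc2a3 (0.71), Slc31a1 (0.61), Slc38a1 (0.58), Slc35f5 (0.55) and Slc35f6 (0.31). It was lower in KO for Slc2a9 (-0.65), Slc46a1 (-0.53), Slc26a6 (-0.52), Slc16a13 (-0.51), Slc4a2 (-0.48), Slc52a2 (-0.46), Slc4a7 (-0.45), Slc35b4 (-0.43), Slc37a2 (-0.43), Slc19a1 (-0.40), Slc39a3 (-0.40), Slc38a7 (-0.36), Slc35a4 (-0.35), Slc38a6 (-0.32), Slc36a1 (-0.30) and Slc35e1 (-0.28). Of these 24 calls, 9 held with each library left out and 3 in all alternatives. Slc38a6 was lost with any 1 of 16 libraries left out, up to an adjusted p of 0.151 without WT LPS 3, and Slc36a1 with 14 of 16, up to 0.204 without WT LPS 3. The calls of Slc16a13, Slc26a6, Slc35e1, Slc38a7 and Slc39a3 were each lost with 10 or more of 16, and those of Slc2a3, Slc37a2, Slc4a7 and Slc35f6 with 3 to 6. Under IL-4 the response was higher in KO for Slc13a3 (1.32) and Slc17a5 (0.40) and lower for Slc19a1 (-0.60) and Slc7a1 (-0.42).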

How the results depend on the processing

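The counts of members that LPS or IL-4 changed, in WT and in KO, stayed within 1.5 times their value in every alternative run; of the counts by direction, that of IL-4 rises in KO (37) was 23 with pairs summed and 21 with DESeq2's Wald test. With a library left out they ranged from 83 to 97 for LPS in WT, 96 to 104 for LPS in KO, 85 to 92 for IL-4 in WT and 75 to 81 for IL-4 in KO. Genotype counts moved more. For KO against WT in M0 (42 members) DESeq2's Wald test gave 18, pairs summed 7, and left-out libraries 32 to 39. Under LPS (55) these were 36, 30 and 39 to 58, and under IL-4 (65) 34, 18 and 46 to 57. The LPS interaction (24) was called for 14 with only the groups compared, 39 without KO libraries 7 and 8, 3 with pairs summed, 9 with DESeq2's Wald test and 12 to 29 with a library left out. The IL-4 interaction (4) was called for 14 without KO libraries 5 and 6, 0 with pairs summed, 2 with DESeq2 and 4 to 5 with a library left out. Pairs summed leaves fewer samples; the cause of the other shifts was not tested. No called value changed sign, but the balance of LPS interaction calls did: 8 higher and 16 lower became 8 and 4 without WT LPS 3, 20 and 8 without KO LPS 8, and 23 and 16 without KO libraries 7 and 8.

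Genotypes share no label numbers, so no paired fit of KO against WT was possible. With the number as a replicate block the LPS interaction was called for 42 members and the IL-4 interaction for 16, and LPS changed 99 in WT and 111 in KO, IL-4 104 and 98. The block was fitted for the responses and interactions only, where it kept 263 calls of named members and ended 2.

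Of 390 calls of named members, 315 held with each library left out and 236 in all alternatives. RLE size factors in place of TMM moved the median of all genes under LPS to -0.113 from -0.0145 (WT) and to -0.153 from -0.0668 (KO). In the 3 shallow LPS libraries a member under 15.5 to 17.9 CPM could not be told from 0, so low members under LPS rest on 2 WT and 3 KO libraries.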

Other observations

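Metal storage, mitochondrial and proton pump genes outside the solute carrier families are given here as values only. The metallothioneins, which bind zinc and copper, were higher in KO for Mt2, with log2 differences of 0.57 in M0, 0.92 under LPS and 0.58 under IL-4. Mt1 differed by 0.30, 0.53 and 0.10. LPS raised Mt2 by a log2 of 2.24 in WT. Mpc1, a subunit of the mitochondrial pyruvate carrier, was higher in KO by 0.58, 0.43 and 0.32. The proton pump subunit Atp6v0a1 was lowered by LPS and raised by IL-4 in WT, with log2 changes of -1.73 and 1.42.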
